A study of Tetranychus truncatus with 6 samples.

Results

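Described here are 150 unigenes of the spider mite Tetranychus truncatus that stood highest in control 6 relative to control 5, 2 libraries of the same acetone control group. A unigene is a transcript assembled from the reads, here with a component number and no gene name. The members were chosen among the 5887 unigenes, of 55272 in all, that had a mean of at least 10 CPM (counts per 1000000 counts of the library) over the 6 libraries and were not among the 100 most abundant. They are the 150 with the highest ratio of (CPM + 0.5) in control 6 to (CPM + 0.5) in control 5. That ratio is therefore the choice itself and is given as a description, with no test.

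Whole adult bodies from a laboratory-bred population were sequenced as 6 RNA-seq libraries. The abamectin group has 3 libraries (replicates 1, 2 and 3) of mites given abamectin at its LC30, the concentration lethal to 30% of them. The control group has 3 libraries (replicates 4, 5 and 6) of mites given 27.5% acetone in water. No solvent is recorded for the abamectin libraries, neither sex nor strain is recorded for any library, and the labels do not say whether replicates were reared apart. The p-values therefore reflect a spread that may be partly technical. The library totals ran from 18954776 to 39982117 counts after abamectin and from 18109230 to 27849837 counts in the controls, with control 5 the shallowest of all.

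Spider mites are minute plant feeders, and a library of whole bodies mixes RNA of gut, muscle, nerve, silk glands and reproductive tissue with that of developing eggs. A unigene can therefore differ between libraries because a tissue contributed more RNA or because its cells held more of that transcript, and whole-body counts cannot tell these apart. Abamectin is an acaricide that acts on chloride channels gated by glutamate in nerve and muscle. No roles are given for the members below, since the deposited tables hold component numbers only, and defining markers of a tissue could not be checked for the same reason. The members are therefore ordered by their levels, their place between the libraries and their length.

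As chosen, the members were a median of 2.65-fold higher in control 6 than in control 5, with ratios of 2.37 to 4.43. Among all eligible unigenes 420 (7.13%) were at least 2-fold higher in control 6, so the choice took the top of a broader difference, and the median unigene was itself 1.22-fold higher. The CPM scale depends on dominant unigenes. The most abundant unigene of the mites took 23.7% of the counts in control 6 and 32.7% in control 5, which lowers the CPM of every other unigene in control 5. After TMM scaling (trimmed mean of M-values, which discounts such dominant features) the median ratio of all eligible unigenes was 0.996, and the members lay between 1.94 and 3.64 with a median of 2.17. Of the 150 unigenes that the same rule picks on TMM-scaled values, 147 (98.0%) were members. Other settings changed the choice more. Of the 150 picked on values per unit of length (FPKM, defined below), 108 (72.0%) were members. With a pseudocount of 5 in the ratio 109 (72.7%) were, and with a minimum mean of 30 CPM 70 (46.7%). The lowest member count in control 5 was 73 reads, so none of the ratios rests on a handful of reads.

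The cut fell within a continuous run of values. The last members inside were c30728.graph_c0 (ratio 2.384), c27912.graph_c0 (2.382) and c15835.graph_c0 (2.374), and the first unigenes outside were c12607.graph_c0 (2.373), c27278.graph_c0 (2.372) and c28957.graph_c0 (2.371).

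**Figure D1:**
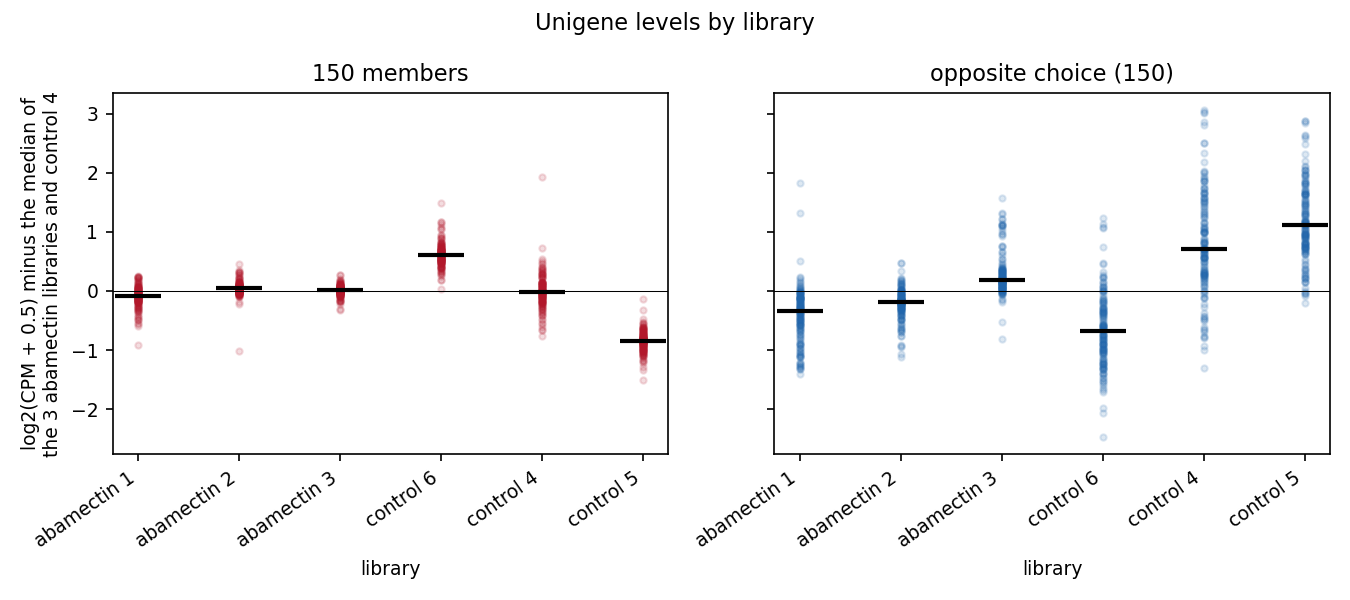
Each point is 1 unigene in 1 library, as log2(CPM + 0.5) minus the unigene's median over the 3 abamectin libraries and control 4; bars are medians over unigenes. The 150 members (left) lie in a narrow band in those 4 libraries, above it in control 6 and below it in control 5, while the 150 unigenes of the opposite choice (right, highest in control 5 over control 6) also differ among the other 4 libraries.

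The ratio did not use control 4 or the abamectin libraries, which entered the rule only through the mean CPM. These libraries sat between the extremes. Summed over the 150 members, the level was 11816, 13857 and 13357 CPM in abamectin 1, 2 and 3, against 20093 CPM in control 6, 11990 CPM in control 4 and 7176 CPM in control 5. The 3 abamectin sums and that of control 4 thus cluster, and both of the chosen controls lie away from that cluster in opposite directions. The median member was 1.53-fold higher in control 6 than its median over those 4 libraries, and that median was 1.80-fold higher than control 5. Control 6 was the highest of the 6 libraries for 147 members and control 5 the lowest for 146. Since the rule selects on exactly these libraries, some excess at both ends would be seen for any such choice.

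To place each library, the position of a member was taken as 0 at control 5 and 1 at control 6 on the log2(CPM + 0.5) scale. The median position was 0.52 in abamectin 1, 0.62 in abamectin 2 and 0.59 in abamectin 3, against 0.56 in control 4. The 3 abamectin medians averaged 0.58 ± 0.05 (SD, n = 3), and on this scale control 4 lay within their range. The quartiles of the members were 0.41 and 0.65 in abamectin 1, 0.55 and 0.69 in abamectin 2, 0.52 and 0.68 in abamectin 3 and 0.50 and 0.66 in control 4. In 144 of the 150 members all 4 libraries lay strictly between control 5 and control 6. Choosing on those controls favours this layout. On TMM-scaled values the median positions were 0.58, 0.60 and 0.54 in abamectin 1, 2 and 3, and 0.50 in control 4, which then lay below all 3.

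The opposite choice, the 150 unigenes highest in control 5 relative to control 6, was laid out differently on the same axis. Its median positions were 0.88, 0.77 and 0.52 in abamectin 1, 2 and 3, near control 6 in the first pair, and 0.18 in control 4, near control 5. Only 73 of its 150 unigenes had all 4 libraries strictly between the controls that chose them. The treated libraries and control 4 thus lay apart in the opposite choice and close together in the members, a difference that was not tested.

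**Figure D2:**
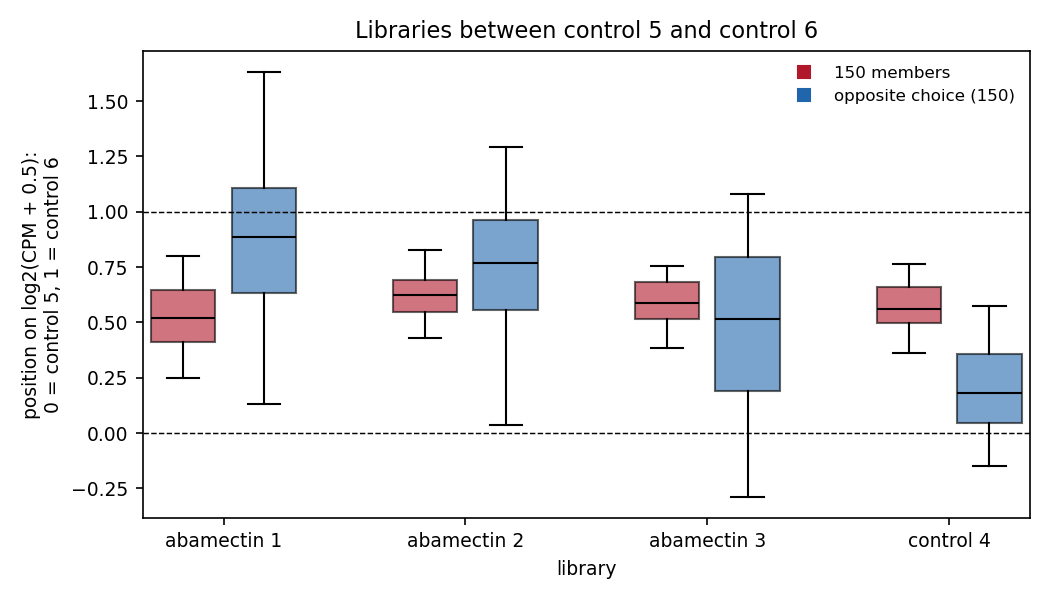
Position of each library between control 5 (0) and control 6 (1) on the log2(CPM + 0.5) scale, for the 150 members (red) and the 150 unigenes of the opposite choice (blue). Boxes span the quartiles with the median as a line, and whiskers the 5th to 95th percentile over unigenes; the members' medians lie between 0.52 and 0.62 in all 4 libraries, and the opposite choice runs from 0.88 in abamectin 1 to 0.18 in control 4.

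How level each unigene stayed was read as its span over the 4 libraries that the ratio did not use. Such a span does not show whether unigenes moved together. The highest of abamectin 1, 2, 3 and control 4 exceeded the lowest by a median of 1.26-fold in the members, 2.84-fold in the opposite choice and 1.39-fold in all eligible unigenes. Only 3 members (2%) spanned 2-fold or more over these 4 libraries, against 110 (73.3%) of the opposite choice and 668 (11.3%) of all eligible unigenes. A span under 1.5-fold was found for 125 members (83.3%), 20 unigenes (13.3%) of the opposite choice and 3691 (62.7%) of all eligible unigenes. At low abundance the members again had a smaller span than the eligible unigenes. In the class of 10 to 30 CPM, which holds 80 of the members, the median span was 1.26-fold in the members and 1.43-fold in all eligible unigenes of the class.

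How closely unigenes moved together was read from the spread of their log2 ratios. This spread was narrower over the members in each pair of a treated library with control 4. The log2 ratio of abamectin 2 to control 4 had an interquartile range of 0.38 over the members and 0.64 over all eligible unigenes, around medians of 0.05 and 0.06. For abamectin 1 over control 4 the interquartile ranges were 0.45 and 0.74, around medians of -0.08 for each. For abamectin 3 over control 4 they were 0.38 and 0.59, around medians of 0.04 and 0.08. In the opposite choice the interquartile ranges against control 4 were 1.38, 1.23 and 1.41 for abamectin 1, 2 and 3. Between treated libraries the members and the rest were closer. The interquartile range of abamectin 2 over abamectin 1 was 0.25 in the members and 0.26 in all eligible unigenes, that of abamectin 3 over abamectin 1 was 0.27 and 0.32, and that of abamectin 2 over abamectin 3 was 0.12 and 0.13. The members were, however, shifted in the last pair. Abamectin 2 exceeded abamectin 3 in 103 members (68.7%), against 38.6% of all eligible unigenes, by a median of 0.05 log2 units.

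**Figure D3:**
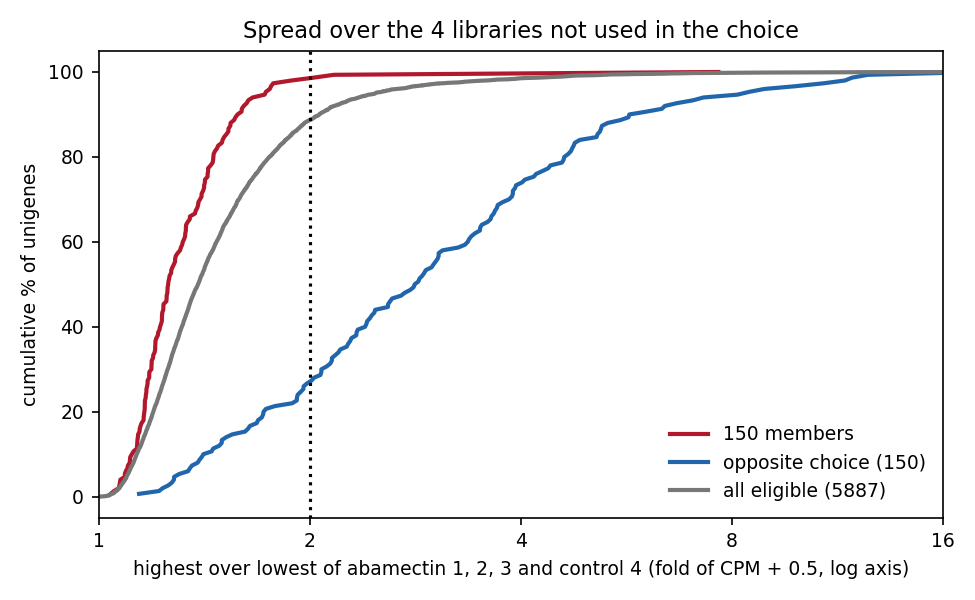
Cumulative share of unigenes (y axis, %) by the ratio of the highest to the lowest of abamectin 1, 2, 3 and control 4 (x axis, log scale, shown up to 16-fold), for the members, the opposite choice and all eligible unigenes. The dotted line marks 2-fold, which 2% of the members, 73.3% of the opposite choice and 11.3% of all eligible unigenes reached or passed.

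The member with the highest ratio was c30988.graph_c0 (effective length 581 nt, the length implied by its count and FPKM). It had 10.6, 11.1 and 11.2 CPM in abamectin 1, 2 and 3, and 25.2, 16.1 and 5.30 CPM in controls 6, 4 and 5. The 3 treated libraries were almost level, and control 4 lay above each of them. The second, c30574.graph_c0 (1259 nt), had another layout, with 124, 52.3 and 90.3 CPM in abamectin 1, 2 and 3, and 297, 404 and 66.9 CPM in controls 6, 4 and 5. Control 4 exceeded control 6 here, the only member for which it did, and abamectin 2 fell below control 5. With a 7.66-fold span over the 4 libraries not used, it was also the most variable member.

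The next 4 by ratio kept to the common layout. The unigene c30232.graph_c1 (1830 nt) had 18.0, 25.1 and 24.1 CPM in abamectin 1, 2 and 3, and 56.0, 26.5 and 14.1 CPM in controls 6, 4 and 5. For c23602.graph_c0 (989 nt), the most weakly expressed of them, the values were 12.4, 11 and 10.9 CPM after abamectin, and 16.8, 10.4 and 4.03 CPM in the same order of controls. In these 2 unigenes control 4 lay just outside the treated range, above it in the first and below it in the second. The level of c30599.graph_c0 (948 nt) was 152, 209 and 192 CPM after abamectin, and 345, 179 and 93.4 CPM in controls 6, 4 and 5. That of c30872.graph_c0 (795 nt) was 28.8, 33.0 and 32.7 CPM after abamectin, and 51.9, 28.2 and 14.1 CPM in controls 6, 4 and 5. Control 4 fell inside the treated range for c30599.graph_c0 and just under it for c30872.graph_c0, and control 6 was the highest library for both.

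Control 4 lay highest on the axis in the least abundant class and lowest in the most abundant, without a steady fall between them. Its median positions were 0.61 at 10 to 30 CPM, 0.53 at 30 to 100, 0.55 at 100 to 300 and 0.48 above 300 CPM. Those of the abamectin libraries were 0.56, 0.60, 0.58 and 0.59. The class above 300 CPM holds only 11 members. The most abundant members rest on high counts, where counting error is small. The unigene c23340.graph_c0 (1981 nt) had 595, 813 and 757 CPM in abamectin 1, 2 and 3, and 1238, 461 and 385 CPM in controls 6, 4 and 5. Control 4 stood close to control 5 in this case, at position 0.15. For c22264.graph_c0 (2417 nt) the levels were 664, 739 and 703 CPM after abamectin, and 910, 575 and 377 CPM in controls 6, 4 and 5. For c26784.graph_c0 (1313 nt) they were 562, 659 and 625 CPM after abamectin, and 908, 535 and 330 CPM in those controls. Both had every treated library above control 4 and below control 6. The unigene c30581.graph_c0 (6405 nt), one of the longest members, had 523, 599 and 591 CPM after abamectin, and 1006, 560 and 308 CPM in controls 6, 4 and 5. In c23390.graph_c0 (5000 nt) the levels were 497, 660 and 640 CPM after abamectin, and 918, 467 and 322 CPM in controls 6, 4 and 5. Control 4 lay within the treated range for c30581.graph_c0 and below it for c23390.graph_c0.

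Per unit of length, these abundant members differed more than their CPM values show. The highest mean FPKM (fragments per kilobase of unigene and per 1000000 fragments mapped) of any member was 715, of c30529.graph_c0 (781 nt), whereas the far longer c30581.graph_c0 averaged 93.5 FPKM. The median member averaged 19.8 FPKM, close to the 19.9 FPKM of the median eligible unigene, although its mean of 26.7 CPM was below the 51.7 CPM of the median eligible unigene. By library, the median member had 18.5, 20.3 and 19.7 FPKM in abamectin 1, 2 and 3, against 30.6, 20.3 and 9.88 FPKM in controls 6, 4 and 5. The median eligible unigene ran only from 19.1 to 20.9 FPKM after abamectin and from 17.0 to 21.4 FPKM in the controls.

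**Figure D4:**
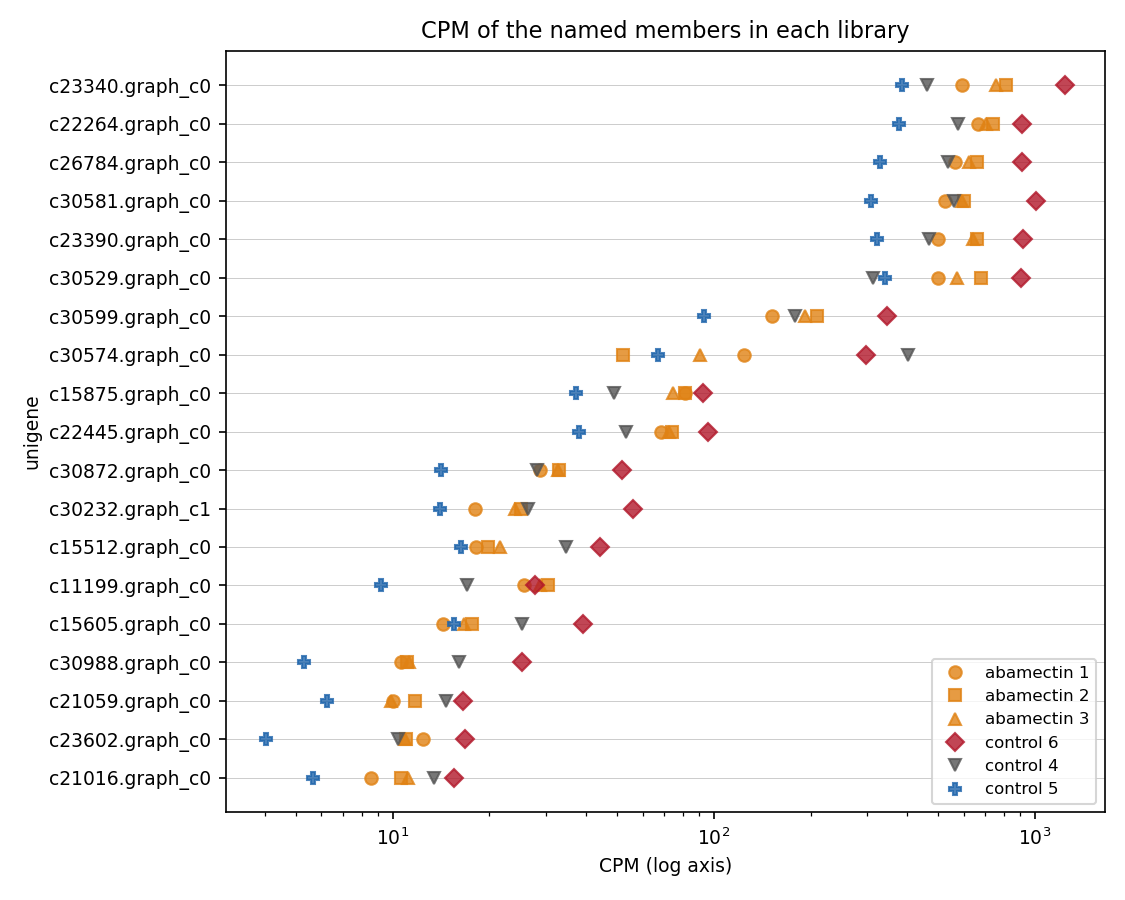
CPM (x axis, log scale) of the named members in each of the 6 libraries, 1 row per unigene ordered by mean CPM. Control 6 (diamonds) is at the right end and control 5 (plus signs) at the left end of most rows, with the abamectin libraries and control 4 between them; c30574.graph_c0, c30529.graph_c0, c11199.graph_c0 and c15605.graph_c0 depart from this.

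The treatment was tested on libraries that the ratio did not use, abamectin 1, 2 and 3 against control 4, in a fit over all 12356 unigenes that passed the count filter. With a single control, an effect of abamectin and a peculiarity of that library cannot be told apart, and the lone control is assumed to vary as the treated libraries do. Of the 150 members, all of which were tested, 12 (8%) differed in edgeR's quasi-likelihood test (Benjamini-Hochberg adjusted p under 0.05). Among all unigenes tested 16.2% did, and among the eligible unigenes 26.2%. By direction, 9 members (6%) were higher after abamectin, against 8.99% of all tested and 16.8% of the eligible. Lower were 3 members (2%), against 7.22% and 9.34%. The share of called members was thus below the background in both directions. The median log2 fold change was 0.10 over the members and 0.10 over all eligible unigenes, with quartiles of -0.10 and 0.27 for the members and of -0.23 and 0.42 for the eligible.

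The called share was lower for the members than for the eligible unigenes in each class of abundance. From 10 to 30 CPM 4 of 80 members (5%) were called against 22.5% of the eligible unigenes, and from 30 to 100 CPM 4 of 39 (10.3%) against 27.4%. From 100 to 300 CPM 3 of 20 (15%) were called against 29.4%, and above 300 CPM 1 of 11 (9.09%) against 24.1%. The counts depended on the abamectin libraries. Without abamectin 2, 1 member and 1.56% of the eligible unigenes were called, and without abamectin 1, 35 members (23.3%) and 48.4%. Without abamectin 3, 8 members (5.33%) and 25.6% were called. DESeq2 called 22 members (14.7%) and 36.3% of the eligible unigenes. With scaling by library size alone 4 members were called, 2 higher and 2 lower, against 15.4% of the eligible unigenes, 9.10% higher and 6.25% lower.

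The called members that were lower after abamectin fell by a median of 1.66-fold and at most 4.28-fold. The eligible unigenes called lower fell by a median of 1.73-fold. Members called higher rose by a median of 1.45-fold and at most 1.96-fold, against a median of 1.63-fold over the eligible unigenes called higher. The smallest p in this direction was that of c11199.graph_c0 (964 nt), with 25.6, 30.6 and 28.7 CPM in abamectin 1, 2 and 3, and 27.6, 17.0 and 9.22 CPM in controls 6, 4 and 5. Abamectin 2 and 3 exceeded control 6, abamectin 1 lay just under it, and the unigene rose 1.75-fold over control 4 (log2 fold change 0.81 ± 0.12 SE, adjusted p = 0.0249, edgeR), a call lost without abamectin 2 (adjusted p = 0.0813) or with scaling by library size alone (adjusted p = 0.0532).

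The unigene c15875.graph_c0 (2002 nt) had 81.4, 81.3 and 74.4 CPM after abamectin, and 92.8, 48.9 and 37.3 CPM in controls 6, 4 and 5, a rise of 1.71-fold over control 4 (log2 0.77 ± 0.14 SE, adjusted p = 0.0303, edgeR). For c22445.graph_c0 (1893 nt) the levels were 68.5, 74.1 and 72.4 CPM after abamectin, and 96.2, 53.3 and 38.0 CPM in controls 6, 4 and 5, a rise of 1.42-fold over control 4 (log2 0.50 ± 0.09 SE, adjusted p = 0.0303, edgeR). In both, each treated library lay above control 4 and under control 6. The unigene c30529.graph_c0 had 498, 678 and 570 CPM after abamectin, and 903, 313 and 340 CPM in controls 6, 4 and 5, and rose 1.96-fold over control 4 (log2 0.97 ± 0.17 SE, adjusted p = 0.0309, edgeR). It was the only member whose level in control 4 fell below that in control 5. Each of these 3 calls was lost without abamectin 2 (adjusted p = 0.0760, 0.124 and 0.0792), and that of c22445.graph_c0 also without abamectin 3 (adjusted p = 0.0516). With scaling by library size alone c22445.graph_c0 and c30529.graph_c0 were not called (adjusted p = 0.0718 and 0.0702, edgeR).

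In the lower direction 3 members were called. The unigene c15512.graph_c0 (566 nt) had 18.1, 19.8 and 21.6 CPM after abamectin, and 44.2, 34.6 and 16.3 CPM in controls 6, 4 and 5, so the treated libraries lay just above control 5. Its log2 fold change against control 4 was -0.73 ± 0.11 (SE, adjusted p = 0.0243, edgeR), a 1.66-fold fall. In c30574.graph_c0, whose values are given above, the log2 fold change was -2.10 ± 0.46 (SE, adjusted p = 0.0460, edgeR), a 4.28-fold fall. The unigene c15605.graph_c0 (658 nt) had 14.3, 17.7 and 16.6 CPM after abamectin, and 39.1, 25.2 and 15.5 CPM in controls 6, 4 and 5, with a log2 fold change of -0.56 ± 0.13 (SE, adjusted p = 0.0474, edgeR). The first and the third were not called without abamectin 2 (adjusted p = 0.0848 and 0.127), and the third also missed the threshold in DESeq2 (adjusted p = 0.0647), with library size alone (adjusted p = 0.0735) and without abamectin 3 (adjusted p = 0.0767).

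As plain orderings, all 3 abamectin libraries lay above control 4 in 55 members (36.7%) and below it in 53 (35.3%), against 42% and 38.8% of all eligible unigenes. In 42 members (28.0%) control 4 fell within the treated range, against 19.2% of the eligible. The highest positions of control 4 after c30574.graph_c0 belonged to c21059.graph_c0 and c21016.graph_c0, at 0.87 and 0.86. The first of these had 10.02, 11.7 and 9.89 CPM after abamectin, and 16.6, 14.6 and 6.24 CPM in controls 6, 4 and 5. The second had 8.55, 10.6 and 11.2 CPM after abamectin, and 15.5, 13.5 and 5.63 CPM in controls 6, 4 and 5. In both, control 4 lay above the treated libraries and under control 6, and neither passed the test (adjusted p = 0.159 and 0.207, edgeR).

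In the comparison for which the study was designed, abamectin against all 3 controls, 0 of the 150 members were called, against 3.07% of all 10204 unigenes tested and 3.26% of the eligible (edgeR's quasi-likelihood test). By direction the background was 1.31% of all tested and 1.6% of the eligible for higher calls, and 1.75% and 1.66% for lower calls. Before adjustment 4 members and 1936 of the 5887 eligible unigenes had p under 0.05. DESeq2 called 0 members and 16.9% of the eligible unigenes, and limma-voom 0 members and 2.55%. The rule chose the members by a difference between 2 of these controls, so nothing is read from that count. The opposite choice, taken by a larger difference between the same controls (median ratio of control 6 to control 5 of 0.305), had 5 calls. The abamectin and control libraries failed to overlap in 0 members and in 14 unigenes of the opposite choice, against 32.7% of the eligible unigenes. Both choices set controls 5 and 6 far apart and so widen the control range, and nothing is read from this difference either. When control 6 was left out, 17 members (11.3%) and 18.0% of the eligible unigenes were called. All 17 were higher after abamectin, against 8.001% of the eligible, and the remaining controls include the one chosen to be low. When control 5 was left out, 6 members (4%) and 23.4% of the eligible were called, all 6 lower, against 7.51% of the eligible. The remaining controls then include the one chosen to be high, so nothing is read from the direction of either set of calls. Without control 4, 0 members and 0.0510% of the eligible were called.

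Length was a feature that the rule did not use. The members had a median effective length of 1703 nt, with quartiles of 1028 and 2406 nt, against 2634 nt for all eligible unigenes and 1837 nt for the opposite choice. Of the eligible unigenes under 1000 nt, 34 of 488 (6.97%) were members, and from 1000 to 2000 nt 62 of 1470 (4.22%). The share was 1.93% from 2000 to 3000 nt, 1.51% from 3000 to 4000 nt and 0.697% above 4000 nt, where 10 of 1434 were members. The opposite choice was also richest under 1000 nt (8.61%) but took 2.02% of the unigenes above 4000 nt.

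The ratio that chose the members varied with length over the eligible unigenes. The median ratio of control 6 to control 5 over all eligible unigenes was 1.42 under 1000 nt, 1.44 from 1000 to 2000 nt, 1.24 from 2000 to 3000 nt, 1.11 from 3000 to 4000 nt and 1.03 above 4000 nt. On TMM-scaled values it ran from 1.16 in the shortest to 0.836 in the longest class. The part of this length trend in the choice of members was not tested. Over the members, the median position of the abamectin libraries was 0.52, 0.59, 0.63, 0.57 and 0.54 from the shortest to the longest class, and that of control 4 was 0.58, 0.56, 0.57, 0.55 and 0.53.

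**Figure D5:**
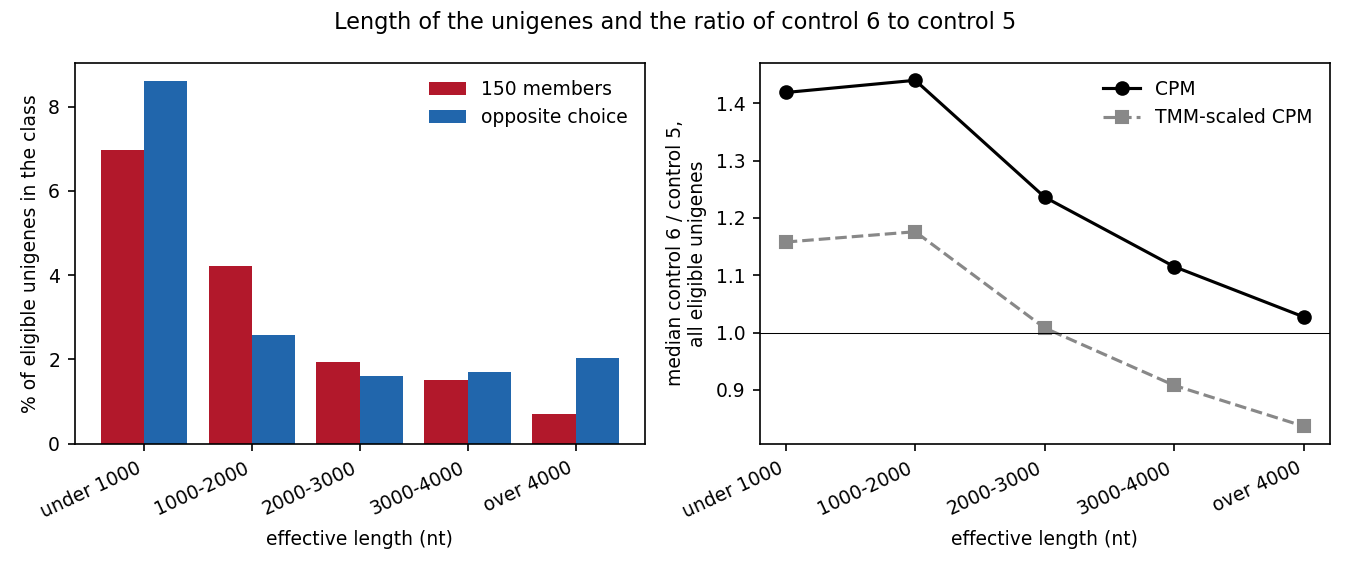
Left, percentage of the eligible unigenes of each length class that were members (red) or belonged to the opposite choice (blue); right, median ratio of control 6 to control 5 over all eligible unigenes of the class, on CPM and on TMM-scaled CPM. The members' share runs from 6.97% in the shortest to 0.697% in the longest class, and the median ratio from 1.42 to 1.03 on CPM.

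The members belonged to 149 assembly components, and only c28547 held more than 1 of them. Its c28547.graph_c2 (1236 nt) had 20.0, 20.4 and 18.6 CPM after abamectin, and 32.4, 19.2 and 11.7 CPM in controls 6, 4 and 5. The longer c28547.graph_c1 (3943 nt) had 11.6, 12.7 and 12.4 CPM after abamectin, and 20.3, 12.8 and 7.23 CPM in those controls. Both were level in the 4 libraries between the extremes. A further 13 eligible unigenes shared a component with a member without being one. Their ratios of control 6 to control 5 ran from 0.590 to 2.26 with a median of 1.22, close to that of all eligible unigenes, and 6 of the 13 lay above it.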

How the data were processed

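The 6 libraries of whole adult mites were analysed. Per the file headers, the authors deposited for each library a count and an FPKM value per unigene. The submitters' processing notes name Bowtie 1.1.1, while how the unigenes were assembled, counted and filtered is not given in the sources used here. All deposited counts are whole numbers. From each library's file, 1 broken identifier and 2586 to 2670 repeated rows with identical values were dropped.

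The members, the comparison sets and the alternatives were chosen with earlier results of these data known. Groups and replicate numbers came from the titles. Tests used edgeR 4.0.16 (R 4.3.3): filterByExpr, TMM scaling, quasi-likelihood fit on treatment alone, two-sided, Benjamini-Hochberg adjustment over all unigenes tested, threshold 0.05. They were tried on simulated counts. Standard errors were derived from the F statistic. The fit without controls 5 and 6 has 2 residual degrees of freedom. DESeq2 1.42.0 and limma-voom (limma 3.58.1) were alternatives, and summaries used Python 3.11.15 with pandas 2.3.3. Effective length was derived as the median over libraries of count over (FPKM × library total).

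Named unigenes were the 6 members with the highest ratio, the 5 with the highest mean CPM, the 4 called members with the lowest p in each direction against control 4 (3 were called lower), the 3 on either side of the cut, the 3 lowest and 3 highest by position of control 4, and those of the component holding most members. No sequence or gene name was used.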

Additional observations from a re-analysis of the deposited data

How the results depend on the processing

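Against control 4, 12 members were called, 9 higher and 3 lower, and 26.2% of the eligible unigenes. Library size alone gave 4 calls (2 higher) and 15.4% of the eligible (9.10% higher). No filter gave 22 (19 higher) and 39.0% (25.3% higher). A filter of mean CPM 10 gave 21 (11 lower) and 34.2% (17.9% lower). DESeq2 gave 22 (20 higher) and 36.3% (24.7% higher). The share of the eligible called thus moved in the same direction as the members' calls each time. Altered choices hold other sets of unigenes, against the same background of 26.2% of the eligible called, 16.8% higher and 9.34% lower. A minimum of 30 CPM in the choice kept 70 members and gave 23 calls (15.3%), 18 higher (12%) and 5 lower (3.33%). A choice pseudocount of 5 kept 109 members and gave 20 calls (13.3%), 16 higher (10.7%). The top 75 gave 2 higher (2.67% of the 75). The choice on FPKM kept 108 members and gave 6 lower (4%). Leaving out 1 abamectin library gave 1 to 35 called (1.56% to 48.4% of the eligible). By direction this was 0 to 28 higher (0.408% to 31.3%) and 1 to 7 lower (1.16% to 17.1%). Against all 3 controls, no filter gave 3 calls (1 higher, 2 lower) and 16.2% of the eligible (10.5% higher, 5.61% lower). The choice on FPKM gave 1 (higher), against 3.26% of the eligible (1.6% higher). Leaving out 1 library gave 0 to 17 called, 0 to 17 higher and 0 to 6 lower, with 0.0340% to 23.4% of the eligible called. The 17 came without control 6 and the 6 without control 5, and nothing is read from their direction. The median position of control 4 was 0.56, and 0.50 with TMM-scaled CPM. The median log2 of the abamectin mean over control 4 was 0.02, and 0.11 with a minimum of 30 CPM. Its interquartile range was 0.36, and 0.43 for the choice on FPKM and 0.41 for the top 300. For each of these shifts the cause was not tested. The 7 named unigenes called against control 4 kept their direction in the alternatives that tested them. Leaving out abamectin libraries for positions was added after seeing the data. No paired analysis was possible because abamectin and control replicates carry different numbers. Control 4 cannot be left out of a fit in which it is the only control, so its own deviation limits that test.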
